A study of Mus musculus with 9 samples.

Results

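miR-139-5p (listed as mmu-miR-139-5p) is the 5′ arm product of the Mir139 hairpin, and it is described here in preleukemic mouse cells with and without the terminal uridylyltransferases TUT4 and TUT7. It is 1 of 817 mature miRNAs in the sRNA-seq data, and it was selected on its abundance, on the positions at which its reads end and on its share of reads with 1, 2 or 3 added Ts. Those values are therefore given as a description, without a test between genotypes. The data hold 9 libraries of E14.5 fetal liver cells from C57BL/6 mice, enriched for c-Kit, transduced with retroviruses carrying Meis1 and Hoxa9, serially replated and cultured with SCF, IL-6, IL-3 and serum. The 4 Tut4/7 cKO libraries came from embryos that carried Vav-iCre along with floxed alleles of both genes (Tut4 fl/fl and Tut7 fl/fl), in which the Vav promoter drives Cre in hematopoietic cells. The 5 Tut4/7 CTL libraries, called WT in the labels, came from littermates with the same floxed alleles and no iCre. All 9 libraries thus carried both floxed alleles and both oncogenes, and the Tut4 and Tut7 transcripts, which would check the genotype labels, are not measured by sRNA-seq.

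TUT4 and TUT7 add uridines to the 3′ ends of RNAs, among them precursor and mature miRNAs, mRNAs and histone transcripts, and a uridine is read as T in sequencing. A miRNA hairpin is cut by Drosha and Dicer into a 5′ and a 3′ arm, and the seed at the 5′ end of the loaded arm selects its mRNA targets. Reads can extend past the annotated 3′ end either because the cut left bases of the hairpin or because bases were added afterwards, and the first case cannot be told from the second where the genome itself carries a T. miR-139-5p is known as a tumor suppressor in myeloid leukemia, and its hairpin lies in an intron of Pde2a, which encodes a phosphodiesterase of cyclic nucleotides.

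The sequences of both arms are shown because every value reported here depends on where the mature sequence ends and which base follows it. The mature sequences are from RefSeq (GRCm38.p6), with the seed (bases 2 to 8) in capitals.
miR-139-5p: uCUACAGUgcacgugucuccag
miR-139-3p: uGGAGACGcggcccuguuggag
Both arms were also read from the hairpin onward, with the first base past the mature 3′ end in capitals.
miR-139-5p and the hairpin bases after it: ucuacagugcacgugucuccagUguggcuc
miR-139-3p and the hairpin bases after it: uggagacgcggcccuguuggagUaac
In GRCm39, miR-139-5p is at chr7:101124589-101124610 and miR-139-3p at chr7:101124625-101124646, both on the plus strand and each with 1 match in the genome. The hairpin, at chr7:101124583-101124650, is intronic in 34 of 34 annotated Pde2a transcripts that span it. In Pde2a-201 it falls between exons 2 and 3, in the intron at chr7:101100676-101130577. The genomic base after either arm is a single T, so a read with 1 added T carries no base that the genome lacks, whereas a read with 2 or 3 added Ts does.

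The read forms that the comparison turns on are printed as the sequenced DNA, with the bases past the mature 3′ end in capitals. They are the 2 most frequent truncated forms, the full-length read and its extensions, of which those of 24 and 25 bases are rare.
20 bases: tctacagtgcacgtgtctcc
21 bases: tctacagtgcacgtgtctcca
22 bases: tctacagtgcacgtgtctccag
23 bases: tctacagtgcacgtgtctccagT
24 bases: tctacagtgcacgtgtctccagTT
25 bases: tctacagtgcacgtgtctccagTTT
The 9 libraries held 15 distinct miR-139-5p sequences of 18 bases or more, and 0 of them also fit another miRNA. No other of the 817 miRNAs had the same seed (0 matches).

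The libraries held 209702 to 316620 miRNA reads in Tut4/7 CTL and 175462 to 479342 in Tut4/7 cKO. The library labelled CTL replicate 2 stood apart from its group. Its median uridylated share over 137 other miRNAs was 0.606%, against 3.50% to 4.51% in the other 4 CTL libraries and 0.0724% to 0.204% in the cKO libraries. Shares of miR-139-5p are therefore given with and without it. Among cell type markers, the myeloid miR-223-3p was present at 2757 to 12222 reads per 1000000 miRNA reads (RPM) in CTL and 972 to 10512 in cKO, and the pan-hematopoietic miR-142a-3p at 65.8 to 165 and 33.4 to 131. Its other arm, miR-142a-5p, had 0 to 4 reads per library in CTL and 1 to 5 in cKO. The hepatocyte miR-122-5p was present at 529 to 1346 and 581 to 1425 RPM. The endothelial miR-126a-3p, which is also found in stem cells, was present at 124 to 202 and 68.4 to 227. Erythroid miR-451a and muscle miR-1a-3p had 0 to 2 reads per library, and erythroid miR-144-3p, muscle miR-133a-3p, neuronal miR-124-3p and the Hox-locus miR-196b-5p had 0 in every library. The Hox-locus miR-10a-5p ranged from 978 to 46777 RPM in CTL and from 532 to 31177 in cKO, so libraries of 1 genotype differed widely in single miRNAs. The part of these differences in the values of miR-139-5p was not tested.

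miR-139-5p was an abundant miRNA of these cells, whose share of all miRNA reads was 0.727% ± 0.302 (SD, n = 5) for the CTL genotype and 0.346% ± 0.251 (SD, n = 4) for the cKO genotype. By its mean share it ranked 27 of 817 in CTL and 42 in cKO. The CTL libraries held 720, 1483, 2585, 1839 and 3372 reads of it in replicates 1 to 5. The cKO libraries held 324, 338, 2959 and 1774 in replicates 1 to 4. Low counts were thus found in 2 of the 4 cKO libraries, while the other two were within the CTL range.

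The levels in CPM, which are reads per 1000000 miRNA reads with library sizes scaled by edgeR's TMM factors, were 3216, 5586, 7602, 6416 and 12672 in the CTL libraries. In the cKO libraries they were 2212, 918, 6755 and 4461. The lowest level was in cKO replicate 2 and the highest in CTL replicate 5, and the groups overlapped between 3216 and 6755. In the order of all 9 levels, CTL replicate 4 and cKO replicate 3 were the only neighbors whose exact 95% Poisson intervals overlapped (6126 to 6717 and 6514 to 7003 CPM). Such intervals cover counting error only, because the libraries had no molecular identifiers and repeat reads of 1 molecule cannot be recognized. The group means were 7098 ± 3505 CPM (SD, n = 5) and 3587 ± 2570 CPM (SD, n = 4), and the spread within either group was of the size of the difference between them. Without CTL replicate 2 the CTL mean was 7477 ± 3928 CPM. The edgeR fit across 205 miRNAs gave a log2 fold change of −0.98 (SE 0.56) in cKO relative to CTL, the rank of 15 from the largest fall. In that comparison 1 of 205 miRNAs passed the threshold of adjusted p = 0.05, or 0.488%. It was miR-704, lower in cKO, which is named after its value was seen. At unadjusted p below 0.05 there were 31. A bulk library cannot tell fewer cells of a type from less of the miRNA per cell.

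**Figure D1:**
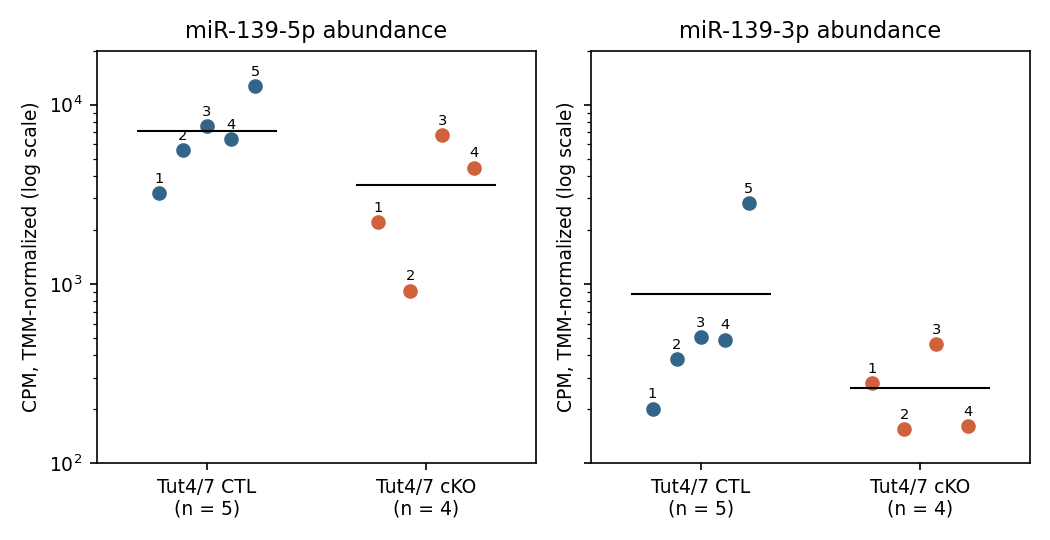
Abundance of the miR-139 arms in each library, as TMM-normalized CPM on a log axis. Points are libraries with their replicate number, and lines are group means. The genotypes overlap for both arms, and CTL replicate 5 has the highest level of both (12672 CPM for miR-139-5p and 2811 CPM for miR-139-3p).

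The dominant form of miR-139-5p was not the annotated 22-base sequence but the 23-base read with 1 added T. This form made up 66.9%, 50.5%, 66.8%, 70.4% and 64.7% of its reads in CTL replicates 1 to 5. In cKO replicates 1 to 4 it made up 61.1%, 59.8%, 53.8% and 57.1%. It held the largest share of reads in every library of both genotypes. The mean was 63.9% ± 7.75 (SD, n = 5) in CTL and 57.9% ± 3.24 (SD, n = 4) in cKO. CTL replicate 2 was below all 4 cKO libraries, and without it the CTL mean was 67.2% ± 2.39 (SD, n = 4) and the ranges of the genotypes no longer overlapped.

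Reads that ended at base 22, the annotated 3′ end, had the opposite order between genotypes. They were 19.0%, 29.5%, 18.5%, 16.0% and 16.4% of reads in the CTL libraries and 23.8%, 22.8%, 27.8% and 23.4% in the cKO libraries. CTL replicate 2 had the highest share of all 9 libraries, and the other 4 CTL libraries were below every cKO library. The means were 19.9% ± 5.54 (SD, n = 5) and 24.4% ± 2.30 (SD, n = 4), and the CTL mean was 17.5% ± 1.48 (SD, n = 4) without replicate 2.

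Reads that stopped short of base 22 formed the remaining group of forms, and most of them ended at base 20 or 21. Truncated reads made up 12.1%, 19.8%, 13.6%, 11.9% and 16.0% of miR-139-5p reads in CTL and 15.1%, 16.9%, 18.4% and 19.4% in cKO. The means were 14.7% ± 3.28 (SD, n = 5) and 17.4% ± 1.86 (SD, n = 4), and the groups overlapped with and without CTL replicate 2 (13.4% ± 1.90 without it). Ends at base 20 averaged 8.64% ± 1.56 and 9.93% ± 0.866, and ends at base 21 averaged 5.32% ± 1.75 and 6.66% ± 0.810. Ends at bases 18 and 19 were rare, with 0 to 13 and 0 to 25 reads per library. Among reads without an added T, the truncated share was 42.7% in CTL and 41.6% in cKO, so the difference in truncated reads had the opposite sign once T-ending reads were left out of the total.

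**Figure D2:**
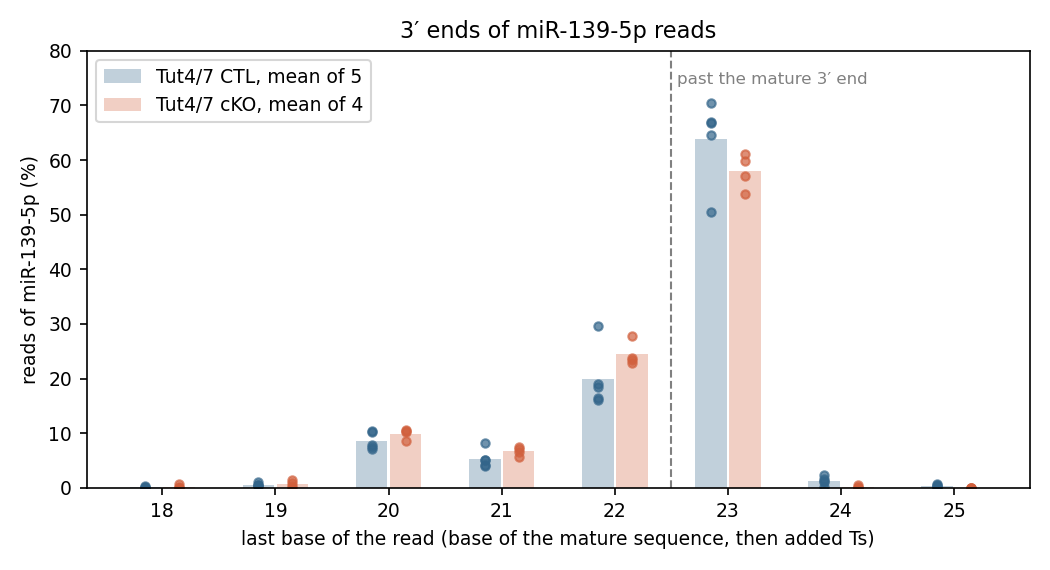
Share of miR-139-5p reads by the last base of the read, in percent. Bars are group means, points are libraries, and the dashed line marks the annotated 3′ end. The form with 1 added T is the tallest in both genotypes (63.9% in Tut4/7 CTL and 57.9% in Tut4/7 cKO), followed by reads ending at base 22 (19.9% and 24.4%).

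Taking all T-ending reads together, the uridylated share of miR-139-5p was 68.9%, 50.7%, 67.9%, 72.1% and 67.6% in the CTL libraries and 61.1%, 60.4%, 53.8% and 57.2% in the cKO libraries. The mean was 65.4% ± 8.42 (SD, n = 5) in CTL and 58.1% ± 3.35 (SD, n = 4) in cKO, and 69.1% ± 2.03 (SD, n = 4) in CTL without replicate 2. Ordered by this share, each library's 95% Wilson interval overlapped that of its neighbor. In the edgeR model of uridylated against other reads, the log2 odds ratio of cKO to CTL was −0.47 (SE 0.45). It was ranked 122 of 143 miRNAs from the largest fall. In that comparison 85 of 143 miRNAs were lower in cKO at adjusted p below the threshold, or 59.4%, with a median log2 odds ratio of −2.84. At that threshold 0 were higher (0 also at unadjusted p below 0.05 and in a quasi-binomial model, but 1 without cKO replicate 4). A miRNA entered only with a uridylated read in at least 3 CTL libraries. Those with such reads in fewer CTL libraries could therefore not enter, whatever their share in cKO, which bears on both counts. A miRNA with a higher share in cKO could still enter, such as miR-486a-5p (26.4% in CTL and 43.6% in cKO). Of the 41 tested miRNAs that, like miR-139-5p, are followed by exactly 1 genomic T, 17 passed (41.5%), with a median of −1.20. Of the 80 not followed by a genomic T, 55 passed (68.8%), with a median of −3.45. In total, uridylated miR-139-5p was present at 4680 ± 2491 CPM (SD, n = 5) in CTL and 2023 ± 1351 CPM (SD, n = 4) in cKO.

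By this share miR-139-5p ranked 10 of 143 in CTL and 7 in cKO. The median of the 143 miRNAs was 5.75% in CTL and 0.463% in cKO. Among the 41 miRNAs followed by exactly 1 genomic T it ranked 7 and 5, against medians of 5.75% and 0.870%. T-ending reads were thus the majority of miR-139-5p reads also in the cKO libraries, in which the median miRNA had under 1% of them.

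**Figure D3:**
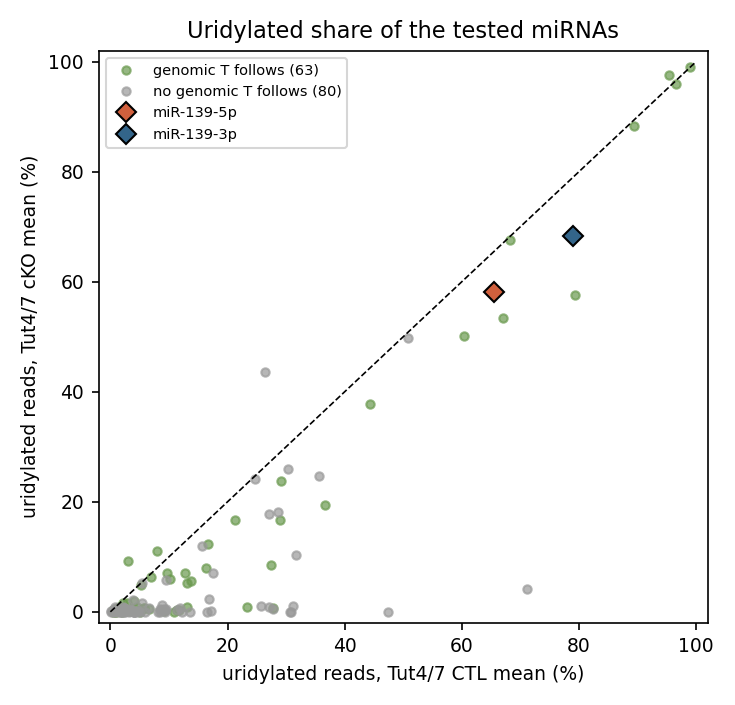
Mean uridylated share of the 143 tested miRNAs in Tut4/7 CTL (horizontal axis, percent) and Tut4/7 cKO (vertical axis, percent), with the diagonal of equal shares dashed. Green points are the 63 miRNAs followed by a genomic T and gray points the other 80, and diamonds mark miR-139-5p (65.4% and 58.1%) and miR-139-3p (79.1% and 68.4%), which lie below and near the diagonal.

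Reads with 2 or 3 added Ts differed in another way from those with 1, and they were nearly absent from cKO libraries. CTL replicates 1 to 5 held 14, 3, 30, 30 and 99 of them. The cKO replicates 1 to 4 held 0, 2, 0 and 2. As a share of miR-139-5p reads this was 1.94%, 0.202%, 1.16%, 1.63% and 2.94% in CTL. In cKO it was 0%, 0.592%, 0% and 0.113%, and the counts of 0 allow up to 0.926% in replicate 1 and 0.101% in replicate 3 (3 counts of the total). The 4 CTL libraries other than replicate 2 were above every cKO library, while CTL replicate 2 lay below cKO replicate 2. For cKO replicate 2 the Wilson interval was 0.162% to 2.13%, since it rests on 2 of 338 reads, and it overlapped the intervals of 4 CTL libraries.

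The mean share with 2 or 3 added Ts was 1.57% ± 1.01 (SD, n = 5) in CTL, or 1.92% ± 0.751 (SD, n = 4) without replicate 2, and 0.176% ± 0.282 (SD, n = 4) in cKO. Summed over libraries, 176 of 9999 reads in CTL (1.76%, Wilson interval 1.52% to 2.04%) and 4 of 5395 in cKO (0.0741%, 0.0288% to 0.190%) carried them. The summed share was 23.7-fold lower in cKO, with an exact interval of 9.11 to 88.1 for counting error alone. The sums weight libraries by depth, unlike the means of shares above. CTL replicate 5 held 99 of the 176 reads, and cKO replicate 3, with 0 such reads, held 2959 of the 5395. Reads with 3 added Ts numbered 2, 0, 3, 8 and 22 in the CTL libraries and 0 in every cKO library. Of the T-ending reads alone, 2.31% ± 1.45 (SD, n = 5) in CTL and 0.294% ± 0.467 (SD, n = 4) in cKO had more than 1 T.

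Reads with more Ts than the genome carries were also modeled across miRNAs, a class added after the data were seen. A miRNA entered this fit only with such a read in at least 3 CTL libraries. For miR-139-5p the log2 odds ratio of cKO to CTL was −3.71 (SE 0.99), rank 49 of 109. Of the 109 miRNAs, 80 were lower in cKO, or 73.4%, with a median of −3.61. Among the 22 of them followed by exactly 1 genomic T, 18 were lower (81.8%), with a median of −3.70. The value of miR-139-5p for these forms was near the middle of all miRNAs, whereas its value for all T-ending reads was among the smallest falls.

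The libraries differed in these forms also in other miRNAs. The share of all other miRNAs' reads with 2 or 3 Ts was 1.92%, 0.630%, 1.26%, 1.504% and 1.67% in the CTL libraries and 0.370%, 0.395%, 0.274% and 0.280% in the cKO libraries. CTL replicate 2 was the lowest CTL library there, as for miR-139-5p, and no cKO library reached it.

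**Figure D4:**
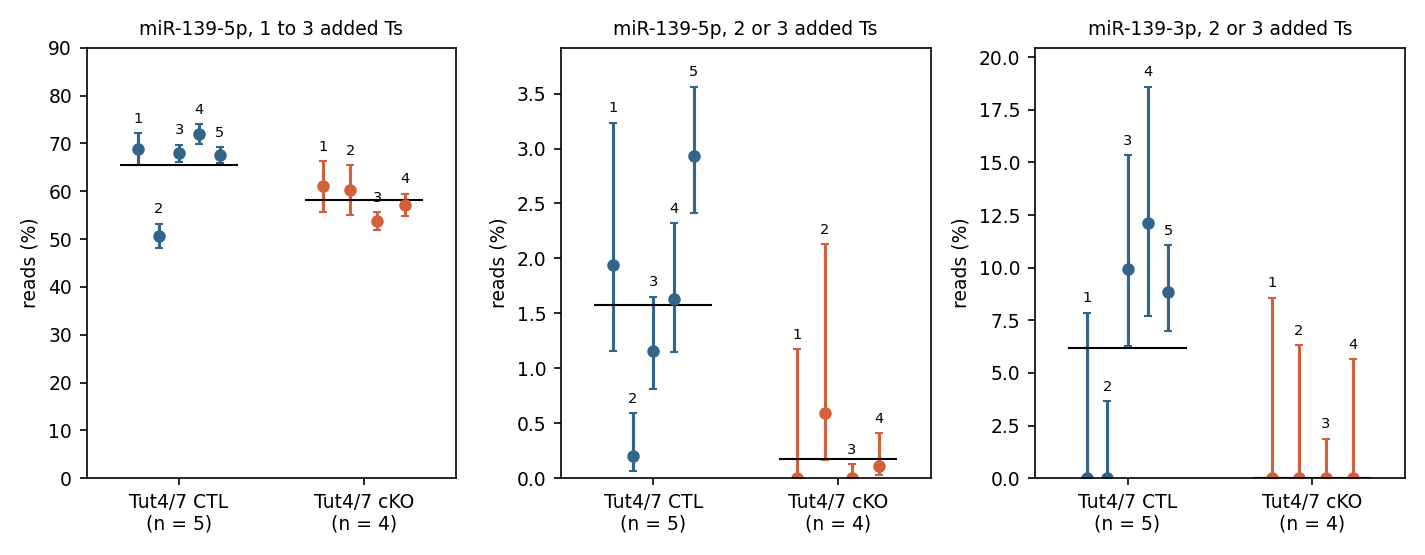
Shares of reads with added Ts in each library, in percent, for miR-139-5p with 1 to 3 Ts (left), miR-139-5p with 2 or 3 Ts (middle) and miR-139-3p with 2 or 3 Ts (right), on axes that start at 0. Points are libraries with their replicate number, bars are 95% Wilson intervals and lines are group means. Forms with 2 or 3 Ts of miR-139-5p average 1.57% in Tut4/7 CTL and 0.176% in Tut4/7 cKO, and those of miR-139-3p are at 0 in every cKO library and in CTL replicates 1 and 2.

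The 5′ end of miR-139-5p, which sets its seed and was not used to select it, was nearly invariant. Reads that started past the first base numbered 0, 1, 0, 1 and 2 in CTL and 0, 0, 5 and 0 in cKO. Their mean share was 0.0362% in CTL and 0.0422% in cKO (two-sided exact permutation test, p = 0.968, with 0.0159 the smallest p possible for 5 against 4). The reads with an altered seed were too few for a difference to be detectable at this depth.

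miR-139-3p, the other arm of the hairpin, was not used in the selection, although it comes from the same precursor and the same libraries. It had 45, 101, 171, 140 and 748 reads in the CTL libraries and 41, 57, 202 and 64 in the cKO libraries. In CPM these were 201, 380, 503, 488 and 2811 in CTL and 280, 155, 461 and 161 in cKO. CTL replicate 5 was far above the others, as it was the highest for miR-139-5p. The log2 fold change was −1.73 (SE 0.77), which did not pass (edgeR quasi-likelihood test, adjusted p = 0.308 over 205 miRNAs, range 0.0161 to 0.536 over the alternatives). It passed only when miRNAs with low counts were kept in the fit. Without CTL replicate 5 the log2 fold change was −0.68, and over all alternatives it ranged from −2.15 to −0.68. The ratio of miR-139-5p to miR-139-3p reads was 16.0, 14.7, 15.1, 13.1 and 4.51 in CTL and 7.90, 5.93, 14.6 and 27.7 in cKO, so miR-139-5p was the more abundant arm in every library and the ratio overlapped between genotypes.

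The 3′ end of miR-139-3p resembled that of miR-139-5p. Its uridylated share was 73.3%, 72.3%, 79.5%, 82.1% and 88.1% in CTL and 78.0%, 68.4%, 72.3% and 54.7% in cKO. The means were 79.1% ± 6.52 (SD, n = 5) and 68.4% ± 9.94 (SD, n = 4), with overlapping groups and a log2 odds ratio of −0.90 (SE 0.49) that did not pass (edgeR, adjusted p = 0.125 over 143 miRNAs, range 0.00615 to 0.336). It passed when CTL replicate 2 was left out (adjusted p = 0.00615).

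Reads of miR-139-3p with 2 or 3 added Ts numbered 0, 0, 17, 17 and 66 in CTL and 0 in all 4 cKO libraries. Over all reads these were 100 of 1205 and 0 of 364, a share at least 8.04-fold lower in cKO by the exact interval for counting error, or 10.1-fold when 3 counts are taken for the sum over cKO libraries. The adjusted p over 109 miRNAs was 0.000264 (edgeR). miR-139-3p entered that fit only through its CTL reads, so this p-value gives no separate support for the fall. Of these 100 reads 64 began at base 4 of the arm, where 64 of 66 CTL reads carried 2 or 3 Ts, and the origin of these reads was not tested. Of the reads from the first base, 29 of 1056 in CTL and 0 of 340 in cKO carried 2 or 3 Ts. That share was at least 2.37-fold lower by the exact interval, or 3.11-fold with 3 counts, with an adjusted p of 0.0195 (edgeR) under the same filter. In CTL replicates 1 to 5 it was 0%, 0%, 0.685%, 4.13% and 3.54%. The summed share rests largely on CTL replicate 5, which held 748 reads of this arm.

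The miRNAs with a uridylated share per library most like that of miR-139-5p were chosen among 72 with at least 50 reads in each library. The measure was the root mean square difference over the 9 libraries. Because libraries of both genotypes entered that measure, a small difference between genotypes was favored by the choice. The p-values for uridylation of these miRNAs therefore give no separate support for a retained share. miR-25-5p, the less abundant arm of a miR-106b~25 cluster hairpin, was closest at 8.90 percentage points, with 68.2% ± 2.13 (SD, n = 5) in CTL and 67.6% ± 4.31 (SD, n = 4) in cKO. Like miR-139-5p it is followed by 1 genomic T. Its log2 odds ratio of uridylation was −0.04 (SE 0.41, edgeR adjusted p = 0.9501). Its forms with more Ts than the genome carries were 9 of 1454 reads in CTL and 0 of 1245 in cKO (edgeR, adjusted p = 0.0161). miR-25-5p too entered that fit only through its CTL reads, so the p-value gives no separate support.

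miR-155-5p, known as an oncogenic miRNA of hematopoietic cells, was next at 10.1 percentage points, with 60.4% ± 7.99 (SD, n = 5) and 50.1% ± 11.5 (SD, n = 4). It is followed by 3 genomic Ts, and its log2 odds ratio of −0.62 (SE 0.49) did not pass (edgeR, adjusted p = 0.273). miR-378a-3p, encoded in an intron of Ppargc1b, was at 13.9 percentage points, with 50.8% ± 9.27 (SD, n = 5) and 49.9% ± 5.02 (SD, n = 4). It has no genomic T after it, and its log2 odds ratio was −0.06 (SE 0.45, edgeR adjusted p = 0.931). A retained uridylated share was thus also measured in a miRNA without a genomic T, although it was picked for that likeness.

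Another miRNA followed by 1 genomic T, miR-26b-5p, held more uridylated reads than miR-139-5p. Its uridylated share was 89.5% ± 2.42 (SD, n = 5) in CTL and 88.3% ± 2.07 (SD, n = 4) in cKO (edgeR, adjusted p = 0.739). Its reads with 2 or 3 Ts were 527 of 9202 in CTL and 69 of 7757 in cKO. Their log2 odds ratio of −2.45 (SE 0.79) passed (edgeR, adjusted p = 0.00458). Entry to that fit was again through CTL reads only, so this p-value gives no separate support. As for miR-139-5p, most reads in cKO still ended in at least 1 T past the mature end, while forms with 2 or 3 were fewer. Whether the first T came from the hairpin or was added cannot be told apart. In miR-92a-3p, a product of the miR-17~92 cluster followed by 2 genomic Ts, the uridylated share was 96.5% in CTL and 96.0% in cKO (edgeR, adjusted p = 0.624). The share was not retained in miR-181a-5p, chosen by the same rule and also followed by 2 genomic Ts. It was 16.3% in CTL and 7.94% in cKO (edgeR, adjusted p = 0.0258, under the filter on uridylated CTL reads).

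By abundance over the 9 libraries the miRNAs most like miR-139-5p among 204 were miR-532-5p, miR-93-5p and miR-148b-3p, with root mean square differences of 0.94, 1.02 and 1.08 in log2 CPM. Their abundance did not differ past the threshold between genotypes, which only 1 of the 205 miRNAs tested (0.488%) passed. The log2 fold changes were −0.40 (SE 0.38), −0.40 (SE 0.25) and −0.03 (SE 0.25). Their uridylated shares differed from that of miR-139-5p. They were 2.47%, 13.1% and 25.8% in CTL and 0.251%, 0.885% and 1.03% in cKO. All 3 falls passed (edgeR, adjusted p of 0.00135, 0.000114 and 7.92e-05), in a fit entered only through uridylated CTL reads. At a like level in cKO libraries, miR-139-5p had 58.1%.

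A list of 31 miRNAs known in hematopoiesis or acute myeloid leukemia, 30 of them in the data, gave the setting. Of 18 tested for abundance, 0 rose and 0 fell (edgeR), while 2 rose at unadjusted p below 0.05 and 1 rose under DESeq2. Over all 205 miRNAs 1 was called (0.488%), 31 had unadjusted p below 0.05, and DESeq2 called 11 (6 higher and 5 lower). The median log2 fold change was 0.26 in the list against −0.01 over all 205. Of 14 tested for uridylation, 8 fell and 0 rose, with a median log2 odds ratio of −1.81 against −2.84 over all 143, of which 59.4% fell. The count in the list was close to that share, and both were subject to the filter on uridylated CTL reads. Examples are miR-221-3p, which targets Kit (−4.40, SE 0.79, adjusted p = 0.000211), and miR-181a-5p, a regulator of lymphocyte signaling (−1.21, SE 0.43, adjusted p = 0.0258), while miR-181b-5p had −0.49 (SE 0.45, adjusted p = 0.354). For Ts beyond those of the genome 7 of 10 fell, against 73.4% of all 109, with a median of −3.38 against −3.61.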

How the data were processed

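Per the labels and the methods of the study, the authors sequenced small RNA libraries (NEBNext, size-selected on gels), trimmed adapters with cutadapt 5.0 and mapped reads with Bowtie 1.3.1, without mismatches, to miRBase mature sequences extended by 3 Ts. They deposited raw counts per miRNA and per distinct read sequence, the latter with an in-house mark for reads that end past the mature 3′ end, and also used DESeq2 1.42.1. The mark was checked against read coordinates, with 0 differences. A mapping without mismatches loses reads with other added bases or more than 3 Ts.

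Libraries were grouped by genotype and replicate number as labelled. Per the methods of the study, replicates came from independent animals or embryos, while the labels do not tie a library to an embryo. Abundance was fitted with edgeR 4.0.16 in R 4.3.3 (TMM, glmQLFit and glmQLFTest) in miRNAs with at least 10 reads in 4 libraries. Uridylation was fitted with edgeR on uridylated and other reads, with library terms and a class-by-genotype interaction, in miRNAs that had at least 10 reads in 5 libraries and were uridylated in at least 3 CTL libraries. The same model was applied to reads with more Ts than the genome (GRCm39) has after the mature end, a class added after the data were seen. Benjamini-Hochberg adjustment was made over all miRNAs tested. Only the share of shifted starts was compared between genotypes with an exact permutation test, in SciPy 1.17.1. The scripts were tested on simulated data. Of 817 miRNAs, 786 mature sequences were rebuilt from reads and located, and 707 names matched RefSeq. Libraries of a group differed beyond sampling noise (chi-square per degree of freedom at least 46.3). Alternatives were DESeq2 1.42.0, other scalings, filters, coverage minimums, read classes, a quasi-binomial model, a replicate block and omission of each library. Named miRNAs were the 3 closest in uridylated share, the 3 closest in abundance, the 3 with most uridylated reads among those followed by a genomic T, and the 3 of the list with most reads. miR-139-5p, the list and the named miRNAs were chosen with earlier results of these data known.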

Additional observations from a re-analysis of the deposited data

Results flagged for a closer look

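Of 32 groups of library values of the miR-139 arms, 6 held a library far from the others by Dixon's 95% criterion, which chance alone meets in about 1 of 20 groups. CTL replicate 2 had the lowest uridylated share of miR-139-5p, 50.7%, with the nearest CTL library at 67.6%. It also had the lowest share with 1 added T, 50.5% against 64.7%, and the highest share of reads ending at base 22, 29.5% against 19.0%. These 3 shares are parts of the same total, and the library also had the lowest median uridylated share of other miRNAs among CTL libraries. Among cKO libraries, replicate 3 had the highest share of miR-139-5p reads with a shifted start, 0.169% against 0% in the others, which rests on 5 reads. Replicate 1 had the lowest share of ends at base 20, 8.64% against 10.2%, from 28 reads. For miR-139-3p, CTL replicate 5 had the highest level, 2811 CPM, with the nearest CTL library at 503 CPM.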

How the results depend on the processing

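The values of miR-139-5p kept their direction in abundance (log2 fold change −1.49 to −0.66 over 15 alternatives), in uridylation (log2 odds ratio −0.70 to −0.36 over 13) and in Ts beyond the genome (−4.81 to −2.73 over 13). The difference in uridylated share was −7.32 percentage points, −11.0 to −5.67 with each library left out, and −1.40 when the T carried by the genome was not counted. The difference in the share with 2 or 3 Ts was −1.40 points, −1.74 to −1.06 with each library left out. The difference in truncated share was 2.76 points, 2.07 to 4.03 with each library left out, and reversed to −1.05 points when uridylated reads were left out of the total. The difference in shifted starts, 0.00602 points, ranged from −0.0362 to 0.0201 with each library left out and rested on 9 reads.

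Across miRNAs, the abundance comparison called 1 miRNA, 0 to 2 with each library left out, 11 with DESeq2 (6 higher and 5 lower) and 18 without a filter on low counts (10 higher and 8 lower). The uridylation comparison called 85, 61 to 100 with each library left out, 28 under the quasi-binomial model and 48 of 73 with at least 200 reads per library. For Ts beyond the genome the counts were 80, 63 to 89, 9 and 48 of 59. The causes were not tested, except that the higher read minimum tests fewer miRNAs. The quasi-binomial model could not be fitted for Ts beyond the genome in miR-139-3p, which has 0 such reads in cKO. Other tested miRNAs also had 0 such reads in cKO, such as miR-1306-3p, without a genomic T (47.4% uridylated in CTL and 0% in cKO). The part of such miRNAs in the lower quasi-binomial counts was not tested.

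Same-numbered libraries were not treated as pairs: their deviations from the group means correlated by −0.104, −0.218, 0.427 and 0.105, so not every pair deviated together, and the labels give no shared source. With the replicate block, 0 miRNAs were called for abundance (6 higher and 15 lower at unadjusted p below 0.05), 73 for uridylation and 63 for Ts beyond the genome, and miR-139-5p had −1.04, −0.44 and −3.35. The block left out CTL replicate 5, whose number no cKO library has, and gave −0.76 for the abundance of miR-139-3p. Depth limits mainly the forms with 2 or 3 Ts in cKO replicates 1 and 2, which had 324 and 338 reads.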
